A study of Mus musculus with 6 samples.

Results

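The proteins of the mitochondrial ribosome were followed here through 76 genes in the stria vascularis of Esrrb mutant and wild-type mice. Members were all genes with a symbol starting with Mrpl or Mrps followed by a digit on probe sets that carry exactly 1 symbol, out of 18193 genes measured in this way. Where a gene had several probe sets, the one with the highest mean over the 6 arrays stood for it. The rule uses names alone, though the family was taken up with earlier results of these data known. The groups were 3 pools of wild-type tissue and 3 pools of tissue from mice with a conditional knock-out of Esrrb, the orphan nuclear receptor gene that the labels write as Errb. Each pool held RNA from 10 mice and went onto 1 Affymetrix array. Only the label of wild-type replicate 1 states an age, postnatal days 3 to 5. The labels name stria vascularis, the potassium-secreting epithelium of the cochlear lateral wall, whereas the design text speaks of inner ears. The Cre line or promoter behind the deletion, the strain and any allele carried by the controls are not stated in the labels. Nothing says that pools of 1 genotype came from separate litters or days, so the p-values rest on the spread of these pools, which may be technical.

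Mitochondrial ribosomes are built in the organelle from ribosomal RNA made from mitochondrial DNA and from proteins encoded in the nucleus, made in the cytosol and imported. They translate the few messages of mitochondrial DNA, all for core subunits of the respiratory chain and ATP synthase. Part of their proteins have counterparts in bacterial ribosomes, and the rest are particular to mitochondria. Marginal cells of the stria are rich in mitochondria that supply their sodium pumps with ATP, and estrogen-related receptors are known for activating nuclear genes of oxidative metabolism. The comparison therefore sets a general mitochondrial gene family beside the respiratory chain.

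Promoter sequences of the members are shown first, because the mutated factor binds a defined DNA element. RefSeq promoters on GRCm38.p6, from 250 bases before to 50 bases after each start, were matched by symbol for 67 of the 76 genes and gave 73 promoters. The estrogen-related receptor element was searched as TNAAGGTCA, the NRF1 motif as GCGCA followed by any base and GCGC, the ETS motif as CCGGAAG and the YY1 motif as AANATGGCG, each on both strands. None of these motifs contains another, though matches may overlap. The receptor element was in 0 of the 73 member promoters, against 1.28% of all 32851 promoters of that length. The NRF1 motif was in 16.4% of member promoters against 4.6% of all, the ETS motif in 34.2% against 8.86%, and the YY1 motif in 15.1% against 2.38%. Restricted to the 18109 promoters of genes measured on the array, the background shares were 1.08%, 7.43%, 13.0% and 3.52% in the same order. Of the 67 genes, 40 had at least 1 of the NRF1, ETS and YY1 motifs. NRF1 and the ETS factor GABPA are known activators of nuclear genes for mitochondria. A match describes letters in a window and shows no binding.

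Among the 4 members with the smallest p in each direction, Mrpl44, Mrpl12 and Mrpl52 have a whole motif ahead of their start, and the 250 bases before it are given here. Capitals mark the NRF1 motif in Mrpl44 and Mrpl12 (read on the opposite strand in Mrpl12) and the ETS motif in Mrpl52, also on the opposite strand.
Mrpl44, chr1:79775768-79776017, plus strand: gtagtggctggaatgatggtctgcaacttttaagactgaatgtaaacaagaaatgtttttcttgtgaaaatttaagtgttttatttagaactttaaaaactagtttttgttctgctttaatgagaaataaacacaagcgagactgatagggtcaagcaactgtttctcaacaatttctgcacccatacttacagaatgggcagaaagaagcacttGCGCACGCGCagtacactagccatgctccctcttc
Mrpl12, chr11:120484387-120484636, plus strand: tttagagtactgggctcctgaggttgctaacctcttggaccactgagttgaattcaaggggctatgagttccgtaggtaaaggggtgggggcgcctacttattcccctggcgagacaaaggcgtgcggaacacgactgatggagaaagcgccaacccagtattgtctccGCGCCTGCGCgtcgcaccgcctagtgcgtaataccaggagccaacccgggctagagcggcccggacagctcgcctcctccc
Mrpl52, chr14:54426659-54426908, plus strand: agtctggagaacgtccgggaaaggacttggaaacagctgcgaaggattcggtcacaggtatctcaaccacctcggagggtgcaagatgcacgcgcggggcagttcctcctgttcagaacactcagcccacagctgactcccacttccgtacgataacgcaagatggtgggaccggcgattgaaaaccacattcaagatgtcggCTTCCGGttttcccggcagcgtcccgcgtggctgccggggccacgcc
Mrpl44 and Mrpl12 were lower in the mean and Mrpl52 higher, by amounts given with their values further on. Mrps9, the member with the smallest p among those higher, has an NRF1 match that spans its start.

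No mitochondrial ribosomal protein gene passed the test between the genotypes. Each difference is a log2 value, mutant minus wild type, given as the mean ± SD of the 3 pairs of arrays with the same replicate number (n = 3). A gene passed at an adjusted p under 0.05 in limma's paired fit over all 45037 probe sets. Of the 76 members 0 passed, with adjusted p from 0.632 to 0.998, against 0.148% of all genes. Unpaired, 0 members passed as well, against 0.0055% of all genes, and 0 had an unadjusted p under 0.05, against 0.308%. At an unadjusted p under 0.05 the paired fit held 2 members lower in the mutant and 0 higher, where 3.31% and 4.04% of all genes lay. The genotypes overlapped over the 6 arrays for every member, while 0.385% of all genes lay wholly lower in the mutant and 0.682% wholly higher. Mean differences ran from -0.50 for Mrpl44 to 0.19 for Mrps9, and 51 of the 76 were under 0.1 in size. The paired 95% interval had a median half-width of 0.20 and lay within ±0.5 for 72 members. The intervals of Mrpl44, Mrpl49, Mrpl50 and Mrps30 reached past -0.5, to -0.93 for Mrpl44. The intervals of Mrpl44 and Mrpl42 alone left out 0, with no adjustment for the number of genes, and in 50 members the SD over the pairs exceeded the size of the mean. This precision is limited by the small number of arrays. The members were not near the lower end of signals. Their mean signals ran from 7.27 to 10.5, the 64th to 96th percentile of all probe sets. The median signal of all genes was 7.29, so the lowest member lay just below it.

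Signs leaned to the lower side in the mean, yet the pairs went different ways. In the mean 55 members (72.4%) were lower in the mutant, against 48.6% of all genes and 40.2% of the 8244 genes whose mean signal lay within the members' range. The members' median difference was -0.052, beside 0.004 for all genes and 0.028 for those in the signal range. Pair medians were -0.050, 0.035 and -0.12 in pairs 1 to 3. In pair 1, 47 members were lower, 15 higher and 14 exactly equal. In pair 2, 23 were lower and 52 higher, and in pair 3, 54 were lower and 22 higher. Genes in the members' signal range also leaned upward in pair 2, with 3237 lower and 4927 higher. Their median there was 0.032, which is 0.0031 below the members' median. In pairs 1 and 3 they had medians of 0 and 0.079, with 3962 and 2942 lower and 2525 and 5237 higher. The mean of the 3 pair medians was thus -0.045 ± 0.078, an SD larger than the mean. Without pair 1 the median difference was -0.024 and without pair 2 it was -0.085.

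Across all 3 pairs 13 members (17.1%) were lower, against 9.03% of all genes and 10.8% of genes in the members' signal range. Higher in all 3 were 7 (9.21%), against 12.9% and 16.4%. A gene exactly equal in pair 1 could be in neither group. That held for 18.4% of members, 32.1% of all genes and 21.3% of genes in the signal range. The 13 lower in all pairs were Mrpl11, Mrpl16, Mrpl28, Mrpl34, Mrpl41, Mrpl42, Mrpl44, Mrpl51, Mrpl55, Mrps5, Mrps14, Mrps21 and Mrps34. Some of these rest on little: Mrpl28 differed by -0.028 to -0.006. Another probe set of Mrpl41, of nearly the same signal, was higher in all 3 pairs, by 0.016 to 0.066. Higher in all pairs were Mrpl22, Mrpl33, Mrpl39, Mrpl47, Mrpl52, Mrps6 and Mrps9. Both subunits are present on both sides. Across the 76 members the differences of 1 pair were weakly related to those of another. Pearson correlations were 0.05 for pairs 1 and 2, -0.01 for pairs 1 and 3 and 0.33 for pairs 2 and 3. Over the 82 respiratory chain and ATP synthase genes the same values were 0.42, 0.32 and 0.83, and over the genes in the members' signal range 0.47, 0.27 and 0.42. By rank the contrast was smaller: Spearman's rho was 0.20, 0.12 and 0.16 for the members, 0.41, 0.40 and 0.45 for the respiratory chain, and 0.31, 0.13 and 0.20 for genes in the signal range. These are descriptions across genes, which share arrays and are not independent.

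**Figure D1:**
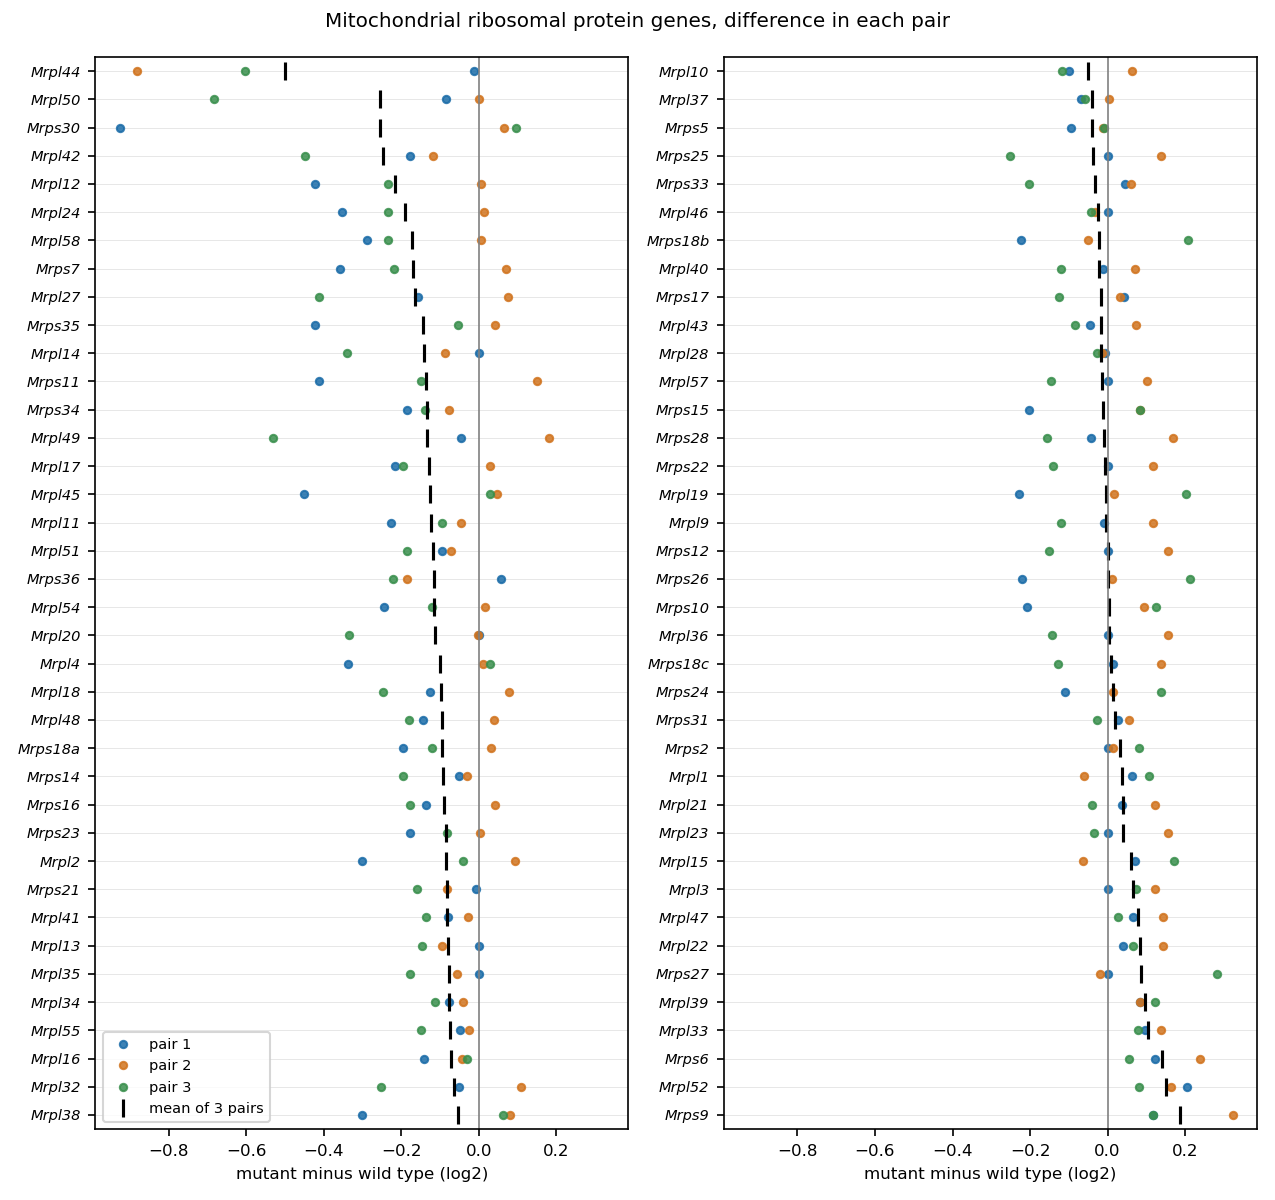
Log2 difference between mutant and wild type for each of the 76 genes, as 1 point for each of the 3 pairs and a black tick for their mean, sorted by the mean. Most points lie within 0.2 of 0, pair 2 (orange) lies mainly to the right of pairs 1 and 3, and single points far to the left belong to Mrpl44, Mrpl50 and Mrps30.

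Signs of RNA quality differed between the genotypes in pairs 1 and 3. Degraded or short RNA raises the log2 signal of a 3' probe set over that of a 5' one. For Gapdh this gap was 2.28 (wild type) and 2.57 (mutant) in pair 1 and far smaller elsewhere. Pair 2 had gaps of 0.21 and 0.16, pair 3 of -0.045 and 0.51. It was therefore wider in the mutant in the pairs where members were mostly lower, and not in pair 2, where they were mostly higher. For Actb the gap was 1.01 and 1.35, 0.52 and 0.47, and 0.18 and 0.49 in pairs 1 to 3, wider in the mutant in pairs 1 and 3 and not in pair 2. Its part in the result was not tested.

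Among proteins of the large subunit, Mrpl44 had the largest difference of all members. It encodes a protein related to ribonuclease III that sits in the large subunit, and its human counterpart is mutated in an infantile cardiomyopathy. Wild-type replicates 1 to 3 read 9.005, 9.93 and 9.48, and the mutant replicates 8.99, 9.05 and 8.88. The mutant arrays lay close together, wild-type replicate 1 lay among them, and pair 1 showed hardly any difference. The mean difference was -0.50 ± 0.44, a 1.41-fold lower signal, with a 95% interval of -0.93 to -0.067 (limma adjusted p = 0.632). Its other probe sets had means of -0.07, -0.29 and -0.04, so the sign of the mean was shared but the size was not. In pair 2, where the chosen probe set differed by -0.88, they differed by -0.03, 0 and 0.09. The last of them was higher in pairs 1 and 2 and lower only in pair 3 (-0.30).

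Mrpl42, a large subunit protein without a bacterial counterpart, was lower in every pair by a smaller amount. Its values were 9.07, 9.90 and 10.01 in wild type and 8.89, 9.79 and 9.56 in the mutant. Replicate 1 was the lowest array of each genotype, and the genotypes overlapped. The difference was -0.25 ± 0.18 (limma adjusted p = 0.660). Mrpl42 and Mrpl44 were the 2 members with an unadjusted p under 0.05 (0.038 and 0.031).

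The stalk, where translation factors dock, is formed by Mrpl12 on its anchor Mrpl10, with Mrpl11 at its base. Mrpl12, which also binds the mitochondrial RNA polymerase, was at 7.44, 9.29 and 9.03 in wild type and 7.01, 9.29 and 8.80 in the mutant. The arrays of pair 1 were far below the others in both genotypes, and pair 2 differed by 0.005. Its mean difference was -0.22 ± 0.22 (limma adjusted p = 0.730). Mrpl10 differed by -0.05 ± 0.10 and Mrpl11 by -0.12 ± 0.09. Another probe set of Mrpl11, of nearly the same signal, differed by 0.10, so the sign for this gene rests on the probe set.

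Around the exit of the peptide tunnel, Mrpl22, Mrpl23, Mrpl24 and Mrpl47 are counterparts of bacterial proteins, and Mrpl45 holds the ribosome at the inner membrane. Mrpl24 was at 8.89, 9.72 and 9.77 in wild type and 8.54, 9.74 and 9.54 in the mutant, lower in pairs 1 and 3 and 0.014 higher in pair 2 (-0.19 ± 0.19). Mrpl22 (0.08 ± 0.05) and Mrpl47 (0.08 ± 0.06) were higher in every pair by at most 0.14, though the mean over all probe sets of Mrpl47 was -0.079. Mrpl23 differed by 0.04 ± 0.10. Mrpl45 differed by -0.45, 0.05 and 0.03 in pairs 1 to 3 so that its mean of -0.13 became 0.037 without pair 1. These neighbours had means on both sides of 0.

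Around the peptidyl transferase centre and the upper tunnel, Mrpl2, Mrpl3, Mrpl4, Mrpl16 and Mrpl27 have bacterial counterparts. Their differences were -0.08, 0.07, -0.10, -0.07 and -0.16, with SDs over the pairs from 0.06 to 0.24. Mrpl27, among the members of highest signal, was at 10.14, 10.49 and 10.31 in wild type and 9.98, 10.56 and 9.90 in the mutant. Mrpl58, the peptidyl-tRNA hydrolase that became part of the large subunit, differed by -0.29, 0.006 and -0.23 in pairs 1 to 3. Mrpl12, Mrpl24 and Mrpl58 were all lower in pairs 1 and 3 and near 0 in pair 2.

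The mitochondria-specific large subunit genes Mrpl50, Mrpl51 and Mrpl52 had pair values of unlike sign and spread. Mrpl50 differed by -0.08, 0 and -0.68, so that pair 3 made its mean of -0.26 ± 0.37. Mrpl51 was lower in every pair, at -0.12 ± 0.06. Mrpl52 was at 10.28, 10.53 and 10.35 in wild type and at 10.48, 10.70 and 10.43 in the mutant, higher in every pair (0.15 ± 0.06, limma adjusted p = 0.730). All 4 probe sets of Mrpl52 had positive means, from 0.06 to 0.15. Mrpl39 (0.10 ± 0.02) and Mrpl33, which has a bacterial counterpart (0.10 ± 0.03), had the tightest pairs among the members that were higher throughout. Their other probe sets, of lower signal, had the opposite sign, with means of -0.09 for Mrpl39 and -0.07 for Mrpl33. Mrpl13, of high signal, differed by -0.08 ± 0.07, with 3 other probe sets at 0.17 to 0.19. Mrpl38 differed by -0.05 ± 0.22 and Mrpl49 by -0.13 ± 0.36.

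**Figure D2:**
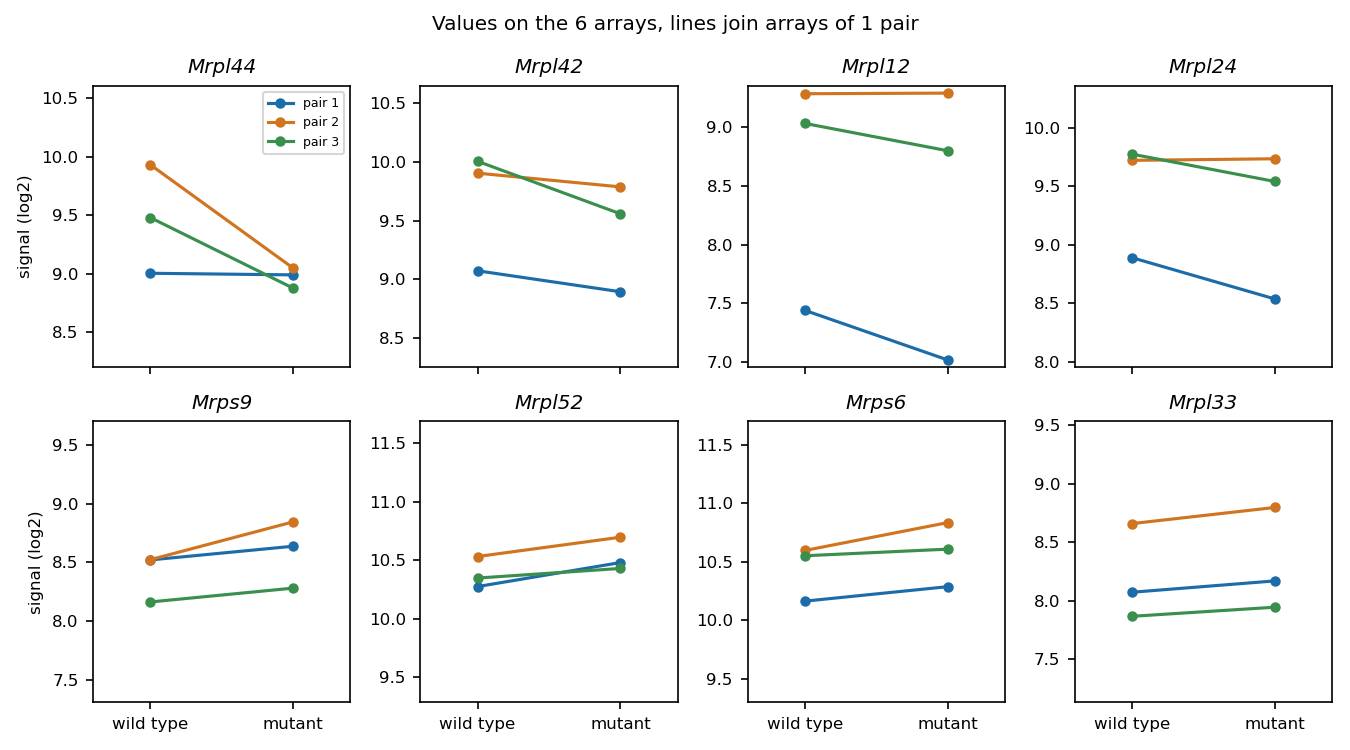
Log2 signal on the 6 arrays for the 4 members with the smallest p among those lower in the mutant (top) and those higher (bottom), with a line joining the wild-type and mutant array of each pair and a span of 2.4 log2 units in every panel. Pair 1 lies far below the others in both genotypes for Mrpl42, Mrpl12 and Mrpl24, the lines of Mrpl12 and Mrpl24 are flat in pair 2, and all lines of the bottom panels slope upward by 0.32 or less.

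In the small subunit the largest difference was a higher signal. Mrps9, counterpart of a bacterial protein at the head of the small subunit, was at 8.52, 8.52 and 8.16 in wild type and 8.64, 8.85 and 8.28 in the mutant. It was higher in every pair by 0.12 to 0.32 (0.19 ± 0.12, limma adjusted p = 0.716), and the genotypes overlapped because replicate 3 was low in both. Its 3 other probe sets had positive means as well, from 0.02 to 0.11. Mrps6 was at 10.16, 10.60 and 10.55 in wild type and 10.29, 10.83 and 10.61 in the mutant, a difference of 0.14 ± 0.09. Its other probe set differed by -0.05, with the opposite sign.

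Mrps34, a mitochondria-specific small subunit protein whose human counterpart is mutated in Leigh syndrome, was lower in every pair. It was at 8.18, 10.00 and 9.57 in wild type and 7.99, 9.92 and 9.43 in the mutant (-0.13 ± 0.05, limma adjusted p = 0.743). Mrps12, which lies at the decoding centre, was exactly equal in pair 1, 0.16 higher in pair 2 and 0.15 lower in pair 3, a mean of 0.001 ± 0.15. Mrps5, a neighbour of the messenger RNA entry, differed by -0.04 ± 0.05. Mrps27, a pentatricopeptide repeat protein and the member of lowest signal, differed by 0.09 ± 0.17, and by -0.010 without pair 3.

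Outside the members named so far, means ran from -0.17 for Mrps7 to 0.060 for Mrpl15, both with bacterial counterparts. The 3 genes of the S18 family encode proteins related to 1 bacterial protein, of which Mrps18a lies in the large subunit. They differed by -0.095 ± 0.12 (Mrps18a), -0.02 ± 0.22 (Mrps18b) and 0.008 ± 0.13 (Mrps18c). None kept its sign in all 3 pairs. Mrps30, in spite of its name a protein of the large subunit, was at 8.62, 9.15 and 8.33 in wild type and 7.69, 9.21 and 8.43 in the mutant. Pair 1 alone was lower, by 0.93, and the mean of -0.26 ± 0.58 turned to 0.08 without it. Mrps36, since reassigned to the 2-oxoglutarate dehydrogenase complex, differed by -0.12 ± 0.15.

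By place in the ribosome, the 49 large subunit genes had a median difference of -0.078 and 38 were lower, and the 26 small subunit genes had -0.015 and 16 were lower; Mrps36 is in neither. Pair medians were -0.051, 0.030 and -0.12 for the large subunit and -0.048, 0.049 and -0.10 for the small, so that within each pair both subunits lay on the same side of 0. The 47 genes with a bacterial counterpart had a median of -0.039 and the 28 mitochondria-specific ones -0.068, with 31 and 23 lower. The largest gap was between mitochondria-specific genes of the large subunit (-0.095, 17 of 19 lower) and small subunit genes with a bacterial counterpart (-0.012, 10 of 17 lower). These counts are of means, and 48.6% of all genes had a lower mean. In pair 2, 13 of the 19 and 13 of the 17 were higher, with medians of 0.039 and 0.070. Only 4 of the 19 and 3 of the 17 were lower in all 3 pairs. The differences between medians of these groups were not tested.

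Members with and without a promoter motif overlapped in their differences. The 12 genes with an NRF1 motif had a median difference of -0.074, and the 55 without had -0.039. For the ETS motif the medians were -0.022 in 25 genes and -0.058 in 42, and for YY1 -0.095 in 11 and -0.035 in 56. Both signs occurred with and without each of these motifs, 3 of the 12 NRF1 genes being higher.

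Many members had further probe sets to compare. The 76 genes had 156 single-symbol probe sets, of which 80 did not stand for their gene. In 15 of the 42 genes with several, all means had the same sign. None of the 80 passed in the paired fit (smallest limma adjusted p = 0.588), against 0.0933% of all probe sets. An unadjusted p under 0.05 was found for 4 of the 80, beside 3.31% of all genes lower and 4.04% higher. The smallest p among these was that of a second probe set of Mrps23. It differed by -0.46 ± 0.37, against -0.09 for the one of highest signal. The others were of Mrpl44 (-0.29), Mrpl13 (0.19) and Mrpl15 (0.21). Another 4 probe sets carry a member's symbol beside a second one and were left out by the rule.

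Respiratory chain genes were mostly lower in each of the 3 pairs. Of 82 nuclear genes for respiratory chain and ATP synthase subunits, taken by symbol, 78 were lower in the mean. In all 3 pairs 50 (61.0%) were lower, against 9.03% of all genes, and 0 higher. In pair 1, 7.32% of the 82 genes were exactly equal, against 32.1% of all genes, and an equal gene counts as neither. The median difference of the 82 was -0.14, with pair medians of -0.066, -0.097 and -0.22. No gene passed singly (smallest limma adjusted p = 0.143), and at an unadjusted p under 0.05 there were 18 lower and 0 higher, beside 3.31% and 4.04% of all genes. Unpaired, 0 passed and 1 had an unadjusted p under 0.05. In pair 2, where 52 of 76 mitochondrial ribosomal protein genes were higher, 69 of 82 respiratory chain genes were lower. Without pair 3 the respiratory chain median was -0.087. Fewer cells of a type and less RNA per cell cannot be told apart in these pooled tissues.

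Set against each other, the median of the ribosomal genes lay above that of the respiratory chain in every pair, by little in pair 1. The gap was 0.016, 0.13 and 0.10 in pairs 1 to 3, a mean of 0.084 ± 0.061. The gap of the medians over all pairs was 0.090, and it was 0.14 without pair 1 and 0.046 without pair 3. It was narrowest in pair 1, where the Gapdh gap was widest and 14 members had equal values on both arrays. Leaving out genes with exactly equal values there, the pair 1 medians were -0.095 for the ribosomal genes and -0.077 for the respiratory chain, so the order turned. The list was chosen with these values known, so the difference is a description. Relative to cytosolic ribosomal protein genes, the members' median lay at -0.050, 0.012 and -0.13, changing sign between pairs. The 47 cytosolic ribosomal genes themselves had pair medians of 0, 0.023 and 0.009. Median signals were 8.85 for the members, 10.9 for the respiratory chain and 13.1 for the cytosolic ribosome. These comparisons between lists were therefore not matched for signal.

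**Figure D3:**
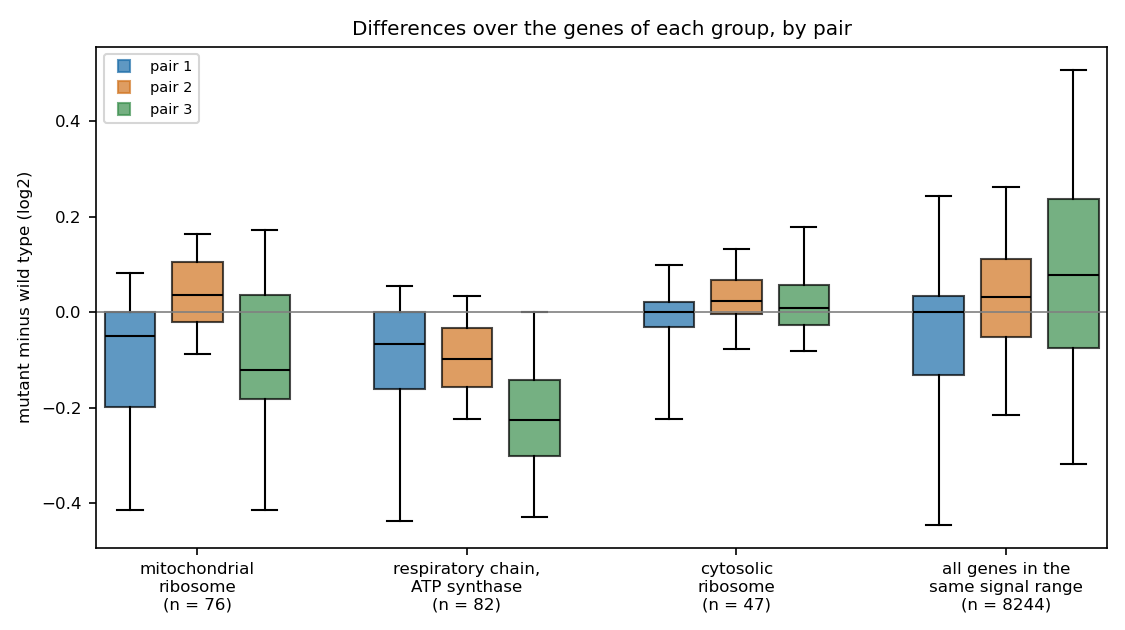
Differences (mutant minus wild type, log2) over the genes of 4 groups in each pair, with the median as a line, the quartiles as a box and the 5th to 95th percentiles as whiskers. Medians of the mitochondrial ribosome lie at -0.050, 0.035 and -0.12 on both sides of 0, while those of the respiratory chain lie at -0.066, -0.097 and -0.22.

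In mean differences each respiratory complex had a lower median than the ribosomal genes. The medians were -0.11 for 35 complex I genes, -0.29 for 4 complex II genes, -0.19 for 9 complex III genes, -0.14 for 17 complex IV genes and -0.12 for 17 ATP synthase genes. In pair 1, however, the medians of complex I (-0.049) and complex IV (-0.001) lay above the -0.050 of the ribosomal genes. Every gene of complexes I, II and III was lower in the mean. The genes of smallest p were Cox7a1, the heart and muscle isoform of a complex IV subunit (-1.03 ± 0.31, limma adjusted p = 0.143), and Atp5b, the catalytic subunit of ATP synthase (-0.38 ± 0.14, limma adjusted p = 0.369). The estrogen-related receptor element, found in no member promoter, was in 3 of 72 respiratory chain promoters (4.17%) and in 1 of 49 of the cytosolic ribosome (2.04%). It was in 1.28% of all promoters, and these shares were not compared by a test. The 3 respiratory chain promoters belong to Atp5g3 (-0.15 ± 0.03), Ndufb4 (-0.12 ± 0.11) and Sdhd (-0.39 ± 0.15), none of which passed (limma adjusted p = 0.728, 0.751 and 0.381). Ndufb4 had a low mean signal, 4.54 against a median of 7.29 for all genes, and was exactly equal in pair 1.

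Other gene groups of mitochondrial translation had medians near 0. Of 13 translation factor genes 8 were lower and 0 passed, with a median of -0.027. In all 3 pairs 5 of them (38.5%) were lower and 0 higher, against 9.03% and 12.9% of all genes. The initiation factor gene Mtif2 (-0.14 ± 0.12) and the elongation factor gene Guf1 (0.18 ± 0.22) had the smallest p. The 16 mitochondrial tRNA synthetase genes had a median of -0.011, with 9 lower, and the 23 ribosome assembly genes 0.031, with 8 lower; 0 passed in each. Among the synthetase genes 1 was lower in all 3 pairs and 0 higher, and among the assembly genes 2 were lower and 4 higher. The assembly factor gene Mpv17l2 differed by -0.22 ± 0.12 (limma adjusted p = 0.642). Mitochondrial ribosomal proteins under other symbols, 4 of them measured, had a median of -0.037 and both signs, with Dap3 at -0.08 ± 0.24 and Gadd45gip1 at -0.16 ± 0.40.

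Mitochondrial DNA maintenance, transcription and their regulators had a median of 0.020 over 17 genes, 7 of them lower. Ppargc1a, the coactivator of estrogen-related receptors, differed by -0.70, 0.004 and -1.23 in pairs 1 to 3 (-0.64 ± 0.62, limma adjusted p = 0.659). It was lower in pairs 1 and 3, as were the members' medians, and level in pair 2, where the members' median was 0.035. The respiratory chain median was -0.097 in pair 2. Any link between Ppargc1a and these medians was not tested. Of 28 protein import genes 20 were lower, with a median of -0.063 and none past the threshold. General mitochondrial content genes, such as carriers, porins and chaperones, had a median of -0.052 over 16 genes, equal to that of the members. Their pair medians of -0.056, -0.080 and -0.091 were all negative, and 6 of the 16 (37.5%) were lower in all 3 pairs and 1 higher. Sod2, the matrix superoxide dismutase, was lower in every pair (-0.37 ± 0.14, limma adjusted p = 0.399). Of 16 cell cycle genes, which mark proliferation, 14 had a higher mean in the mutant; 51.3% of all genes did. The median was 0.21, with pair medians of 0.071, 0.085 and 0.39, so pair 3 stood out, and 0 passed.

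**Figure D4:**
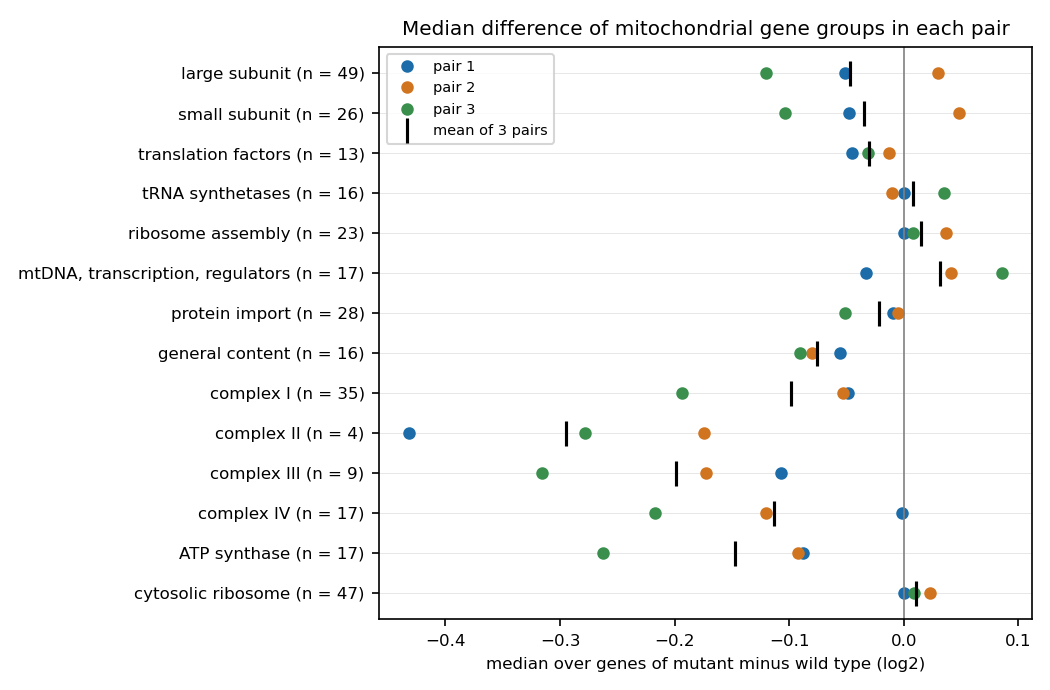
Median over the genes of each group of mutant minus wild type (log2), with 1 point for each pair and a black tick for the mean of the 3 pairs. The subunits of the mitochondrial ribosome straddle 0, at -0.051, 0.030 and -0.12 for the large one, whereas no respiratory complex has a pair median above 0.

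As checks on the samples, Esrrb was at 9.68, 10.60 and 9.96 in wild type and 9.76, 10.28 and 9.98 in the mutant. Where this probe set lies relative to the deleted part is not stated, so it checks nothing about the labels. Marginal cell markers, a list of 7 that includes Esrrb, all had a lower mean in the mutant, with a median of -1.40. Of these 4 passed: Kcne1, Kcnq1, Slc12a2 and Atp13a5. Without the replicate block only Kcne1 did. Their summed log2 signal was 13.1 to 14.1 in wild type and 11.8 to 12.7 in the mutant. Neuron markers had pair medians of 3.12, 0.34 and 0.20 with a summed signal of 7.61 to 8.52 and 7.95 to 10.6, and 0 of 6 passed. The other 9 marker lists had medians from -0.71 for intermediate cells and melanocytes to 0.13 for Schwann cells, and 1 gene in all passed, Gjb6 of the fibrocyte list. The part of cell composition in the members' differences was not tested.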

How the data were processed

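Expression was measured on 6 Affymetrix arrays, 3 wild type and 3 mutant. The deposited values are log2 expression per probe set, made by the authors with RMA per the submitters' processing notes; no source here gives its settings or says whether each pair was processed alone. That the scale is log2 follows from the range of values, 2.33 to 14.6. Signals of different probe sets do not compare transcript amounts between genes.

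Members and lists were chosen with earlier results of these data known. The values were fitted as deposited with limma 3.58.1 under R 4.3.3, using its functions lmFit and eBayes (two-sided), with genotype and replicate number as terms and Benjamini-Hochberg adjustment over 45037 probe sets; 64 controls were left out and no level filter was used. Of these, 34945 had 1 symbol, 932 several and 9160 none. Pairing comes from the replicate numbers in the labels and from a check: within pairs 1 to 3, the arrays' departures from their genotype's mean had correlations of 0.879, 0.818 and 0.746, over the limit of 0.1. Between arrays of different numbers they ran from -0.654 to 0.119. Wild-type replicate 3 and mutant replicate 2, at 0.119, were thus over the limit as well. Exactly equal values were found for 15406, 1185 and 1398 probe sets within pairs 1 to 3 and for 0 between arrays of different numbers. Processing by pair could therefore raise the correlations within pairs. The 3 departures of a genotype also sum to 0, so high correlations within pairs lower those between numbers. The check thus cannot show that the pools themselves were paired. Array medians were 6.07 to 6.95.

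Named members were the 8 with the smallest p in each direction, the 5 of highest and 3 of lowest signal, and 10 chosen for their role; in other lists, genes past the threshold or else the 2 of smallest p and the 2 of highest signal. Further members, and Sdhd and Ndufb4, were named after their values were seen. The fit was tested on simulated data. Alternatives were the fit without the block, quantile normalization, median centring, a level filter, other eBayes options, array weights, leaving out each pair, means over probe sets, leaving out cross-hybridising classes and other thresholds. Listed genes without a matching symbol, and the protein sequences of the Mrps18 genes, are not analysed here.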

Additional observations from a re-analysis of the deposited data

How the results depend on the processing

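The count of 0 passing genes held for mitochondrial ribosomal proteins and for the respiratory chain under every alternative that used an adjusted p. At an unadjusted p under 0.05 the counts were 2 and 18. Without the replicate block the counts were 0 and 0, and the medians of -0.052 and -0.14 were the same by construction. Leaving out 1 pair gave a ribosomal median of -0.085 to -0.024, with 45 to 62 members lower, a respiratory chain median of -0.17 to -0.087 and a gap between the medians of 0.046 to 0.14. The other alternatives moved the ribosomal median between -0.078 and -0.036 and the gap between 0.058 and 0.094. Of 29 named members 18 kept the sign of their mean under every alternative run, and none passed under any. Signs turned under quantile normalization for Mrps12 (-0.016) and Mrps18c (-0.0049), with means over probe sets for Mrpl13 (0.11) and Mrpl47 (-0.079), and without cross-hybridising classes for Mrpl38 (0.020) and Mrps6 (-0.048). Leaving out 1 pair gave ranges of -0.12 to 0.071 for Mrpl38, -0.21 to 0.037 for Mrpl45, -0.29 to 0.067 for Mrpl49, -0.076 to 0.078 for Mrps12, -0.14 to 0.078 for Mrps18b, -0.058 to 0.076 for Mrps18c, -0.010 to 0.14 for Mrps27 and -0.43 to 0.080 for Mrps30. The causes were not tested. Signal over background is not given, and 3 pairs limit what small differences could pass.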
